A study of Mus musculus with 24 samples.

Results

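The 10 genes described here are Clec7a, Itgax, Cd9, Gpnmb, Lyz2, Cst7, Apoe, Lpl, Ch25h and Spp1, which are used to mark disease-associated microglia. They were taken by gene name, and each was 1 of the 54532 rows of a table of read counts from mouse striatum. Disease-associated microglia are a state of the brain's resident macrophages, described around amyloid plaques and in other degenerating tissue, in which genes for lipid uptake, lysosomal breakdown and phagocytic surface receptors rise. Passage into the full state is known to need the lipid-sensing receptor TREM2, which signals through the adaptor protein TYROBP (DAP12). The study crossed deletion of Tyrobp with the Q175 allele, in which the mouse Huntingtin gene (Htt) carries a lengthened CAG repeat, a model of Huntington's disease.

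The 24 libraries came from 24 C57BL/6 animals, 6 for each of 4 genotypes with 3 males (replicates 1 to 3) and 3 females (replicates 4 to 6). WT animals carried neither change, TyrobpKO animals lacked Tyrobp, Q175 animals were heterozygous for the Q175 allele, and Q175_TyrobpKO animals were heterozygous for that allele and lacked Tyrobp. The Tyrobp deletion was not described as limited to a cell type, and age was not given in the sources used here. Animal names in the labels began with T in both groups lacking Tyrobp and with Q in all Q175 animals and WT replicate 3. What the letters mark cannot be told apart from Tyrobp genotype, nor, apart from that 1 animal, from Q175 in animals that kept Tyrobp.

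Libraries held 25.5 to 34.6 M counts (M, megacounts; median 28.0 M). The labels were checked on Tyrobp, which lay between 5.69 and 11.8 CPM (TMM-scaled counts per megacount of the library) in libraries with the gene and between 0.214 and 0.448 CPM in libraries labelled as lacking it. The tissue was checked on 12 markers of striatal projection neurons, which summed to between 3899 and 10107 CPM. The microglial genes Cx3cr1, P2ry12 and Tmem119 were present in every library, with lowest values of 43.1, 30.9 and 13.5 CPM. In 4 libraries (Q175 replicates 3 and 5, Q175_TyrobpKO replicates 4 and 6) 9 choroid plexus markers summed to at least 481 CPM, against at most 213 CPM in the other 20, so results were also computed without these 4. Q175 replicate 1 stood apart from the other 5 Q175 libraries in Lyz2. Results without it are given for Lyz2, for Cd9 and for the number of members called in Q175 against WT.

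The sequences just upstream of the 4 genes that changed in both main comparisons are shown here. These 4 genes rose in Q175 against WT and fell in Q175_TyrobpKO against Q175. Each sequence runs up to the gene's first base, 5′ to 3′ on the gene's strand, from RefSeq on build GRCm38.p6. Bases that fall inside the deposited gene model were left off (3 for Itgax, 49 for Lyz2). Capitals mark GAGGAA, the core of sites for the myeloid factor PU.1, CACGTG, the E-box of the MITF and TFE family of lysosomal regulators, and TGANTCA, the AP-1 site, each searched on both strands. The windows are chr6:129472780-129473029 on the minus strand for Clec7a, chr7:128129300-128129546 on the plus strand for Itgax, chr10:117282322-117282522 on the minus strand for Lyz2 and chr2:150570165-150570414 on the plus strand for Cst7.
Clec7a: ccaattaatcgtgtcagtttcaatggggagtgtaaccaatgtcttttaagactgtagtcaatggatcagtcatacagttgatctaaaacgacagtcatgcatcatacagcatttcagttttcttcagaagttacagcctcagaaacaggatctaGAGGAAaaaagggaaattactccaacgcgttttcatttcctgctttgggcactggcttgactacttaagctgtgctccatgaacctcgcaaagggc
Itgax: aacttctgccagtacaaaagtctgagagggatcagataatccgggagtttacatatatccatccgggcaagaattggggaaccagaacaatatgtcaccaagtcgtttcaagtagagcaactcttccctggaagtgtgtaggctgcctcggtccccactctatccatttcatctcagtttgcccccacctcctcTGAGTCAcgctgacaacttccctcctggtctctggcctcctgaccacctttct
Lyz2: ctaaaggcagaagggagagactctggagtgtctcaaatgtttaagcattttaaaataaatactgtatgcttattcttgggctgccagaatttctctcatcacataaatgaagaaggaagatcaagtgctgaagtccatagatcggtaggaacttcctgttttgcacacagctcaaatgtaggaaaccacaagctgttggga
Cst7: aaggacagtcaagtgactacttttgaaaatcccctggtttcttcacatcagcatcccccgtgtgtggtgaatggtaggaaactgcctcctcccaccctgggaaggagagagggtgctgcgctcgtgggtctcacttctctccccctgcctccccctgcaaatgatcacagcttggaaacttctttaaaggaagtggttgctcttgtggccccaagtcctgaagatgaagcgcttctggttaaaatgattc

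Clec7a held 1 PU.1 core, 96 bases before its start, and Itgax 1 AP-1 site, 53 bases before its start. The windows of Lyz2 and Cst7 held none of the 3 motifs. Of the 9 members with a RefSeq window of 250 bases, 3 had a PU.1 core (Clec7a, Apoe and Spp1), 1 an AP-1 site and 0 an E-box, and no matches overlapped. Among all 32851 windows of this length, 23.3% held the PU.1 core, 6.7% the AP-1 site and 6.0% the E-box. These matches are letters in a window, and the counts do not bear on binding.

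Levels were compared between members as CPM per kilobase of gene model. In WT the order was Apoe at 516 ± 59.3 (SD, n = 6), Cd9 at 19.2 ± 1.54, Lpl at 7.36 ± 1.61, Spp1 at 5.95 ± 2.95, Lyz2 at 4.81 ± 0.919, Cst7 at 0.245 ± 0.139, Clec7a at 0.211 ± 0.0900, Gpnmb at 0.178 ± 0.0618, Ch25h at 0.0950 ± 0.0719 and Itgax at 0.0923 ± 0.0318. Neighbours from Lpl to Lyz2, and from Cst7 to Itgax, differed by less than the larger of their SDs, except that Gpnmb lay above Ch25h by more than either SD. The more abundant members are also known from other brain cells (Apoe in astrocytes, Cd9 in oligodendrocytes).

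Of the 9 members that passed the filter on low counts, 4 rose in Q175 against WT (Clec7a, Itgax, Lyz2 and Cst7), where 4.15% of the 19667 genes tested were called higher, and 0 fell (5.47% of genes were called lower). The same 4 fell in Q175_TyrobpKO against Q175, where 0.112% of genes were called lower, and 0 rose (0.0458% of genes were called higher). A call is a Benjamini-Hochberg adjusted p under 0.05 over all genes in edgeR's quasi-likelihood test, and a log2 fold change is given with its standard error. The comparisons share the Q175 libraries, so the second count is not independent of the first. Cst7 passed the filter only through Q175, where 6 libraries exceeded its limit of 0.358 CPM against 2 of the other 18, so it had to differ, and Ch25h did not pass. Of the 8 members that would pass without the Q175 libraries, 3 were called in each of these comparisons (Clec7a, Itgax and Lyz2). In whole tissue, fewer cells of a type and less RNA per cell cannot be told apart.

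**Figure D1:**
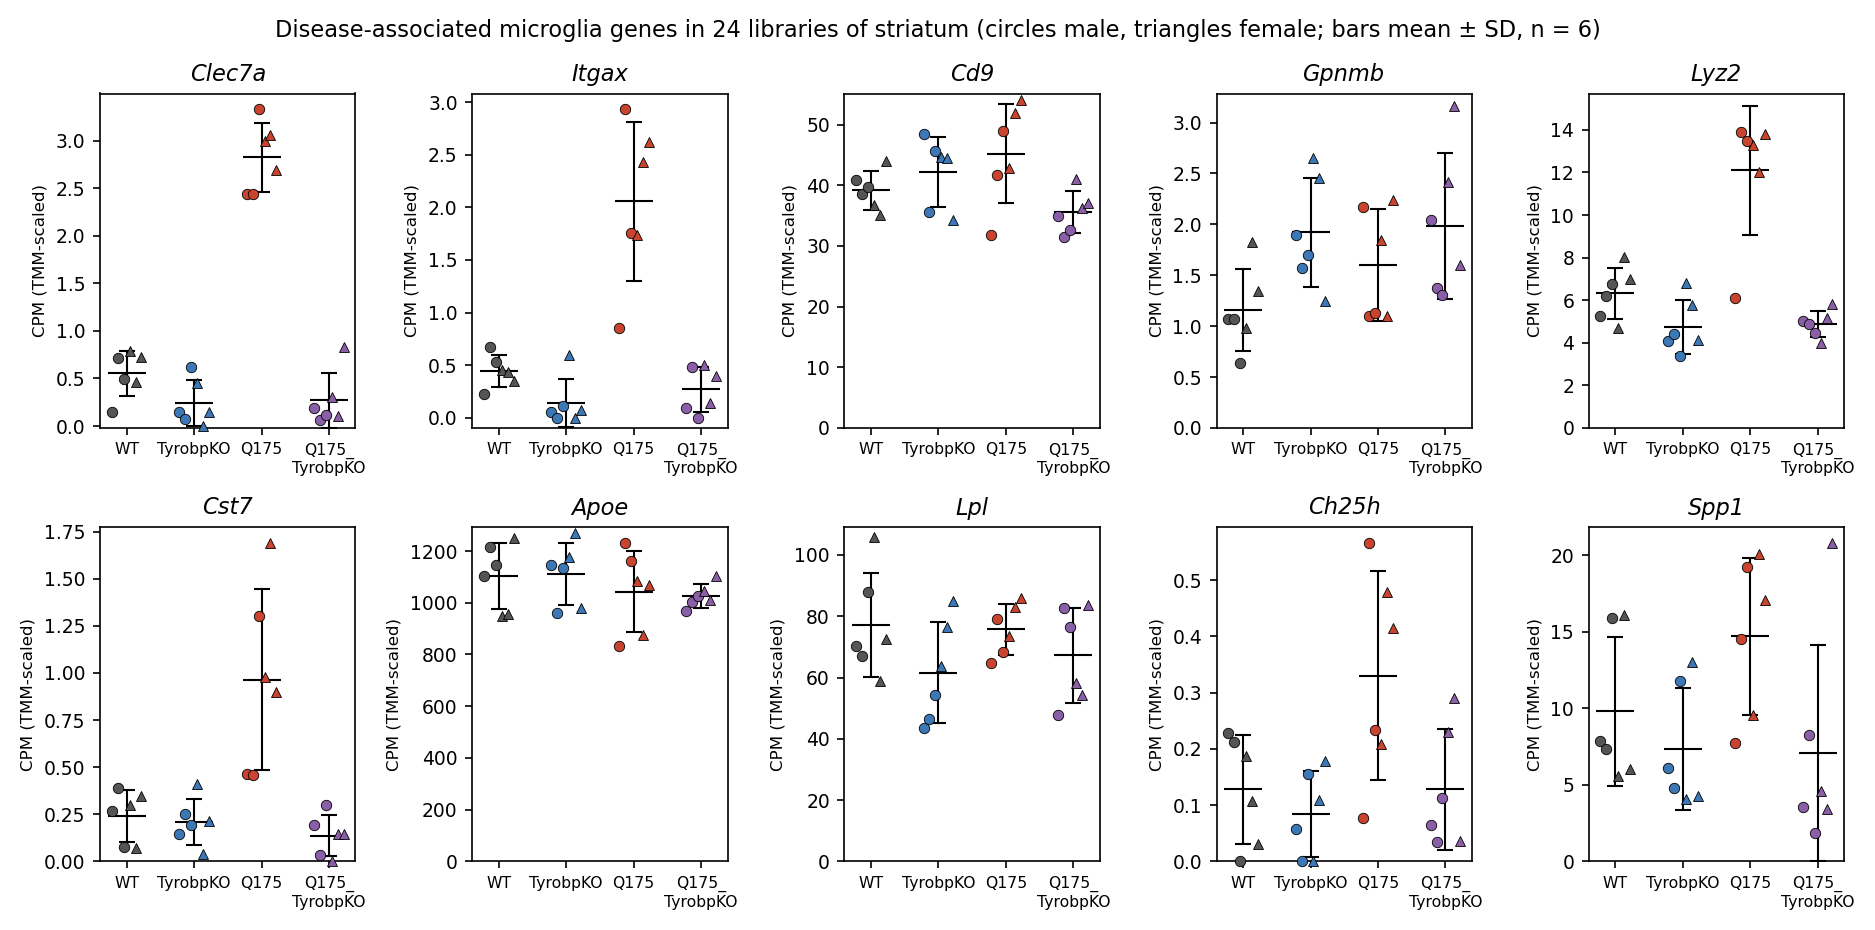
TMM-scaled CPM of each of the 10 members (vertical axes, CPM, a separate linear scale per gene) in the 6 libraries of each of 4 genotypes; circles are males, triangles females, bars the mean ± SD. Clec7a, Itgax and Cst7 are higher in every Q175 library than in any other library, Lyz2 in 5 of 6 Q175 libraries, and Apoe and Lpl overlap between all genotypes.

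Among the surface proteins, Clec7a (ENSMUSG00000079293, chr6:129461591-129472779, minus strand) encodes Dectin-1, a receptor for fungal β-glucans. Its lowest, median and highest values were 0.152, 0.600 and 0.791 CPM across WT libraries, 0, 0.144 and 0.619 CPM in TyrobpKO, 2.44, 2.85 and 3.33 CPM in Q175 and 0.0683, 0.153 and 0.835 CPM in Q175_TyrobpKO. Every Q175 library lay above all 18 others, and the other 3 genotypes overlapped. Clec7a was higher in Q175 than in WT by 2.36 ± 0.47 on the log2 scale (5.13-fold; edgeR adjusted p 0.00142). It was lower in Q175_TyrobpKO than in Q175, by a log2 difference of -3.42 ± 0.51 (edgeR adjusted p 6.00e-04). Without Q175_TyrobpKO replicate 6, which held the 0.835 CPM, this difference was -4.12 (edgeR adjusted p 2.76e-05). Levels of Clec7a rest on few reads, 479 over the 6 Q175 libraries and 45 over the 6 Q175_TyrobpKO libraries.

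Itgax (ENSMUSG00000030789, chr7:128129547-128150657, plus strand) encodes the integrin CD11c, which forms a complement receptor with CD18. Its lowest, median and highest values were 0.229, 0.442 and 0.675 CPM across WT libraries, 0, 0.0649 and 0.597 CPM in TyrobpKO, 0.852, 2.10 and 2.93 CPM in Q175 and 0, 0.272 and 0.499 CPM in Q175_TyrobpKO. Again the 6 Q175 libraries lay above the other 18, with 350 reads against 74 in WT. The rise in Q175 against WT was 2.18 ± 0.54 (4.55-fold; edgeR adjusted p 0.00923), and Q175_TyrobpKO differed from Q175 by -2.94 ± 0.57 (edgeR adjusted p 0.0185). The second call was lost, at an adjusted p of 0.0533 to 0.0845, without Q175 replicate 2 or 6 or without Q175_TyrobpKO replicate 1 or 5. It was also lost with no filter on low counts (-2.94, edgeR adjusted p 0.0693) and without the 4 libraries high in choroid plexus markers (-3.38, edgeR adjusted p 0.227). Itgax lies 97.7 Mb from Tyrobp on the same chromosome.

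Cd9 (ENSMUSG00000030342, chr6:125460266-125494791, minus strand) encodes a tetraspanin that organises membrane proteins. WT libraries averaged 39.2 ± 3.15 CPM, TyrobpKO libraries 42.2 ± 5.83, Q175 libraries 45.2 ± 8.15 and Q175_TyrobpKO libraries 35.6 ± 3.48 (SD, n = 6), and all 4 ranges overlapped. Neither the difference of Q175 from WT (0.20 ± 0.10, edgeR adjusted p 0.235) nor that of Q175_TyrobpKO from Q175 (-0.35 ± 0.10, unadjusted p 0.0021, edgeR adjusted p 0.408) passed. Both passed without Q175 replicate 1, whose 31.8 CPM was the lowest Q175 value (0.28 and -0.43, edgeR adjusted p 0.0448 and 0.0327). The antisense genes Gm26728 and Gm28809 overlap Cd9, but held 176 and 83 reads against its 27402.

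Gpnmb (ENSMUSG00000029816, chr6:49036546-49070929, plus strand) encodes a glycoprotein of lysosomes and the cell surface that is a known target of MITF. WT libraries averaged 1.16 ± 0.403 CPM, Q175 libraries 1.60 ± 0.551, TyrobpKO libraries 1.92 ± 0.538 and Q175_TyrobpKO libraries 1.98 ± 0.714 (SD, n = 6). No comparison was called, and the groups overlapped throughout. Its smallest unadjusted p was in TyrobpKO against WT (0.75 ± 0.25, p 0.00545, edgeR adjusted p 0.749), a sign opposite to that of Clec7a, Itgax and Lyz2 there.

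Of the lysosomal proteins, Lyz2 (ENSMUSG00000069516, chr10:117277331-117282321, minus strand) encodes lysozyme, which cleaves bacterial cell walls. Its lowest, median and highest values were 4.71, 6.48 and 8.02 CPM across WT libraries, 3.36, 4.28 and 6.79 CPM in TyrobpKO, 6.08, 13.4 and 13.9 CPM in Q175 and 3.99, 4.95 and 5.81 CPM in Q175_TyrobpKO. In Q175, 5 of 6 libraries lay above all 18 libraries of the other genotypes, while replicate 1 (6.08 CPM) lay inside the WT range and above every Q175_TyrobpKO library. That library was the lowest of the 6 Q175 libraries for 7 of the 10 members (Itgax, Cd9, Lyz2, Apoe, Lpl, Ch25h and Spp1) and second lowest for Clec7a and Cst7, and also the lowest for Tyrobp (5.69 CPM), Cx3cr1 and P2ry12. Lyz2 was higher in Q175 than in WT by 0.93 ± 0.17 (1.91-fold; edgeR adjusted p 3.90e-04). It was lower in Q175_TyrobpKO than in Q175 (-1.30 ± 0.17, edgeR adjusted p 4.88e-05). Without Q175 replicate 1 the values were 1.06 and -1.43. The nearly identical gene Lyz1 held 3 reads in WT and 7 in Q175, over 6 libraries each, against 1063 and 2064 for Lyz2.

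Cst7 (ENSMUSG00000068129, chr2:150570415-150578944, plus strand) encodes cystatin F, an inhibitor of lysosomal cysteine proteases. Its lowest, median and highest values were 0.0720, 0.284 and 0.391 CPM across WT libraries, 0.0367, 0.204 and 0.410 CPM in TyrobpKO, 0.460, 0.937 and 1.69 CPM in Q175 and 0, 0.145 and 0.300 CPM in Q175_TyrobpKO. The Q175 libraries did not overlap any other genotype, but spread more than for Clec7a, from 0.460 and 0.465 CPM in replicates 2 and 1 to 1.69 CPM in replicate 5. The log2 difference of Q175 from WT was 1.96 ± 0.50 (edgeR adjusted p 0.012), and that of Q175_TyrobpKO from Q175 was -2.76 ± 0.54 (edgeR adjusted p 0.0185). Without the 4 libraries high in choroid plexus markers, which include the Q175 libraries with the 2 highest Cst7 values, the first was 1.47 (edgeR adjusted p 0.104) and the second -1.93, and neither was called. The second was also lost, at an adjusted p of 0.0547 to 0.0782, on leaving out Q175 replicate 3 or 5 or Q175_TyrobpKO replicate 2, 4 or 5 alone, and when the other 12 libraries were kept out of the fit (-2.75, edgeR adjusted p 0.0644).

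Exact 2-sided permutation tests of mean CPM over every way to divide 12 libraries into sets of 6, with adjustment over 40 tests, were run beside the count model. For Clec7a and Itgax both comparisons gave an exact p of 0.00216, the smallest these splits allow, and 0.0124 after adjustment. Lyz2 reached the same values for Q175_TyrobpKO against Q175, but an exact p of 0.0108 (adjusted 0.0541) for Q175 against WT, where the groups overlap. Cst7, whose passing of the filter already required it to be high in Q175, is left out of the next counts. The 40 tests include it, and its exact permutation p of 0.00216 in both comparisons makes the adjusted values here smaller. Libraries of Q175 and WT did not overlap, with Q175 higher, for 2 of the other 8 tested members (Clec7a and Itgax; 1.69% of all genes). Libraries of Q175_TyrobpKO and Q175 did not overlap, with Q175 higher, for 3 of these 8 (Clec7a, Itgax and Lyz2; 0.300% of all genes).

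**Figure D2:**
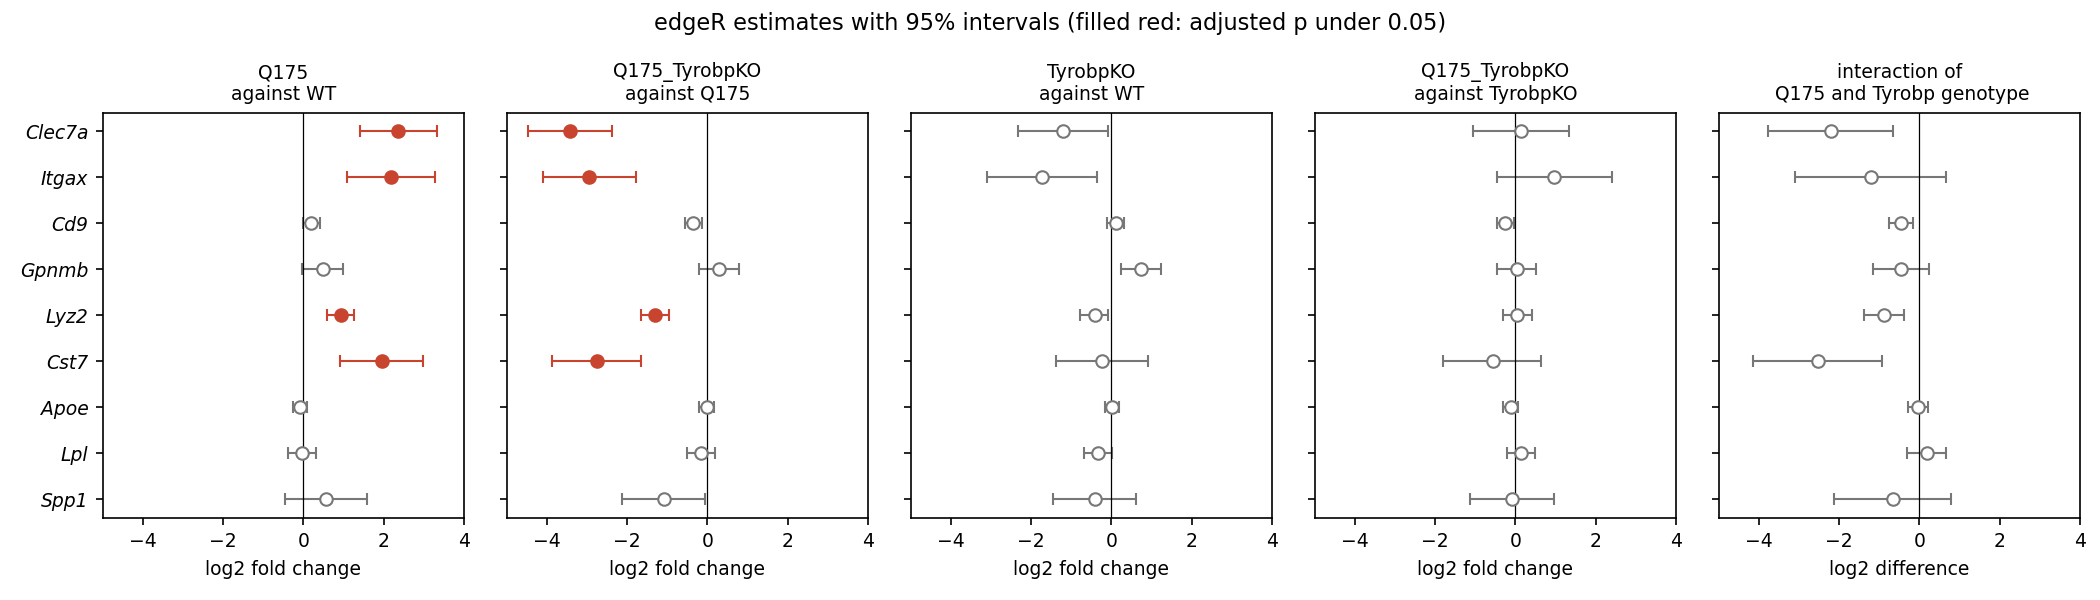
Log2 fold change with its 95% interval from edgeR (horizontal axes) for the 9 tested members in 4 comparisons and the interaction; filled red points have an adjusted p under 0.05. Clec7a, Itgax, Lyz2 and Cst7 lie above 0 in Q175 against WT and below 0 in Q175_TyrobpKO against Q175, while the intervals of Apoe stay within 0.30 of 0 throughout.

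None of the lipid genes was called. Apoe (ENSMUSG00000002985, chr7:19696109-19699188, minus strand), the main lipid carrier of the brain, averaged 1103 ± 127 CPM over WT libraries, 1111 ± 120.2 over TyrobpKO, 1043 ± 157 over Q175 and 1026 ± 46.6 over Q175_TyrobpKO libraries (SD, n = 6). The difference of Q175 from WT was -0.08 with a 95% interval of -0.26 to 0.10, and that of Q175_TyrobpKO from Q175 was -0.02 (-0.20 to 0.16). Apoe rests on 723449 reads, so that counting error is not what limits these intervals. It lies 10.7 Mb from Tyrobp.

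Lpl (ENSMUSG00000015568, chr8:68880491-68907448, plus strand) encodes lipoprotein lipase, which releases fatty acids from lipoproteins. WT libraries averaged 77.1 ± 16.9 CPM, Q175 libraries 75.8 ± 8.34, Q175_TyrobpKO libraries 67.2 ± 15.6 and TyrobpKO libraries 61.6 ± 16.6, all overlapping. Its interval for Q175 against WT was -0.38 to 0.32 around -0.03, and in Q175_TyrobpKO against Q175 it was -0.51 to 0.18 around -0.17.

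Ch25h (ENSMUSG00000050370, chr19:34473786-34475135, minus strand) encodes the enzyme that makes 25-hydroxycholesterol. Over 6 libraries it held 21 reads for WT, 14 for TyrobpKO, 56 for Q175 and 21 for Q175_TyrobpKO, or 0.128 ± 0.0971, 0.0836 ± 0.0766, 0.330 ± 0.186 and 0.128 ± 0.108 CPM (SD, n = 6). The Q175 libraries were highest in mean but ran from 0.0775 to 0.566 CPM and overlapped the others. The exact permutation p was 0.0455 for the difference from WT and 0.0563 for that from Q175_TyrobpKO (0.13 and 0.141 after adjustment), so no difference was shown at this depth. Gm26902, on the other strand across Ch25h, held 262 reads, and the use of strand in counting was not stated, so some of the 112 Ch25h reads may belong to it.

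The secreted member Spp1 (ENSMUSG00000029304, chr5:104435118-104441050, plus strand) encodes osteopontin, a phosphoprotein that binds integrins. In TyrobpKO its lowest value was 4.10 CPM and its median 5.42 CPM, with replicate 5 highest and replicate 3 next at 11.8 CPM. The lowest, median and highest values were 5.61, 7.60 and 16.1 CPM across WT libraries, 7.71, 15.8 and 20.1 CPM in Q175 and 1.88, 4.06 and 20.8 CPM in Q175_TyrobpKO. All groups overlapped, and the highest of all 24 values was Q175_TyrobpKO replicate 6. Neither the difference of Q175 from WT (0.57 ± 0.49, edgeR adjusted p 0.545) nor that of Q175_TyrobpKO from Q175 (-1.09 ± 0.50, edgeR adjusted p 0.827) passed. Without that library the second was -1.77 (edgeR adjusted p 0.238).

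In TyrobpKO against WT, which gives the effect of the deletion without the Q175 allele, 0 of 9 members were called (0.117% of all genes were called), by edgeR, DESeq2 or limma-voom. At an unadjusted p under 0.05 in edgeR there were 4 members, and 1269 of all 19667 genes. Clec7a (-1.21 ± 0.54), Itgax (-1.72 ± 0.66) and Lyz2 (-0.42 ± 0.17) were negative and Gpnmb positive, each with an edgeR adjusted p of 0.749. Itgax in TyrobpKO was 23 reads over 6 libraries, and 1 library held most of its level (replicate 4, 0.597 CPM; the others 0 to 0.116 CPM). This comparison shares the WT libraries with Q175 against WT.

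In Q175_TyrobpKO against TyrobpKO, the effect of the Q175 allele without Tyrobp, 0 of 9 members were called by the same 3 tools, while 5.86% of all genes were. The estimates were 0.05 for Lyz2 (95% interval -0.30 to 0.41), 0.14 for Clec7a (-1.06 to 1.35), 0.97 for Itgax (-0.46 to 2.40) and -0.57 for Cst7 (-1.80 to 0.65). The intervals of Lyz2, Clec7a and Cst7 end below the 0.93, 2.36 and 1.96 seen with Tyrobp present, whereas that of Itgax includes its 2.18. Cst7 had passed the filter only through Q175. Cd9 was the 1 member with an unadjusted p under 0.05 (-0.25 ± 0.10, edgeR adjusted p 0.165), where 3617 of all 19667 genes had one.

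An interaction term asked if the Q175 effect depended on Tyrobp. It was called for 0 of 9 members and 0% of all genes by edgeR (smallest adjusted p 0.123), and for 0 members by DESeq2 and limma-voom. At an unadjusted p under 0.05 there were 4 members and 707 genes in all. The log2 differences were -0.88 ± 0.24 for Lyz2 (p 9.79e-04), -2.53 ± 0.79 for Cst7 (p 0.00327), -0.45 ± 0.14 for Cd9 (p 0.00388) and -2.21 ± 0.76 for Clec7a (p 0.00727), each with an edgeR adjusted p of 0.999. Itgax was at -1.21 ± 0.91 (edgeR p 0.194), and ran from -1.57 to 0.13 on leaving out 1 library. A difference in the Q175 effect between Tyrobp genotypes was thus not established over all genes for any member.

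Sex moved no member past the threshold. In edgeR, 0 of 9 were called in females against males, with Gpnmb at the smallest unadjusted p (0.0192; 0.43 ± 0.17 higher in females). Only 16 of all 19667 genes were called there, so 0 of 9 does not set the members apart. The effect of genotype on a member was not called as different between sexes in either main comparison, where 0 of all genes were called. In edgeR 0 members had an unadjusted p under 0.05 there, the smallest being 0.114 for Cd9 and 0.13 for Clec7a. With 3 animals per genotype and sex, each sex alone kept 1 call in each main comparison, Clec7a in males and Lyz2 in females.

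The 3 companion lists place these genes among others of the same biology. Of 30 other disease-associated microglia genes 28 were tested, and 5 rose (17.9%, against 4.15% of all genes) and 0 fell (5.47% of all genes) in Q175 against WT. Their median log2 fold change was 0.21, against 0.007 for all genes. Timp2, an inhibitor of metalloproteases, rose from 251 ± 18.3 to 348 ± 19.8 CPM (0.47 ± 0.06, edgeR adjusted p 3.40e-06). Its level lay above that of the microglial gene Cx3cr1 (58.7 ± 4.09 CPM in WT), and which cells its reads came from was not tested. The chemokine Ccl6 rose from 1.46 ± 0.459 to 2.84 ± 0.451 CPM (0.96 ± 0.19, edgeR adjusted p 0.00157). The others called were the cathepsins Ctsl and Ctsd and the galectin Lgals3, listed after their values were seen.

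In Q175_TyrobpKO against Q175 the same 28 genes had a median of -0.13 (-0.001 for all genes), and Trem2 alone was called, lower (1 of 28, or 3.57%, against 0.112% of all genes; 18.4 ± 2.77 to 12.8 ± 1.36 CPM; -0.51 ± 0.09, edgeR adjusted p 0.00426). The chemokine Ccl3 was at -1.84 ± 0.43 (edgeR adjusted p 0.0984). Timp2 was higher in Q175_TyrobpKO than in TyrobpKO as well (0.40 ± 0.06, edgeR adjusted p 5.95e-05), where no member was called. Its difference between Q175_TyrobpKO and Q175 was -0.09 ± 0.06 (edgeR adjusted p 0.85).

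None of the 20 homeostatic microglia genes was called in any of the 4 comparisons. Their median was 0.02 in Q175 against WT, where Olfml3 (0.24 ± 0.09) and the transcription factor Sall1 (0.15 ± 0.08) had the smallest p (edgeR adjusted p 0.104 and 0.265). In Q175_TyrobpKO against Q175 their median was -0.22, and 18 of 20 estimates were negative. The TGF-β receptor Tgfbr1 was at -0.27 ± 0.07 (edgeR adjusted p 0.151). The summed level of the list was 2091 ± 154 CPM in Q175 and 1895 ± 56.5 CPM in Q175_TyrobpKO, though Cst3, Rhob and Mef2c, which other brain cells also express, hold 76.5% of it. With that level as a covariate the calls of Lyz2 (-1.13) and Clec7a (-3.47) remained (both edgeR adjusted p 0.00921), while those of Itgax (-2.75, adjusted p 0.301) and Cst7 (-3.07, adjusted p 0.0695) were lost.

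Of 20 genes of sterol and lipid handling 19 were tested, and 2 rose (10.5%, against 4.15% of all genes) and 1 fell (5.26%, close to the 5.47% of all genes) in Q175 against WT (median 0.07). The lipid transporter Abca7 rose (0.72 ± 0.09, edgeR adjusted p 6.92e-06), and so did the lipogenic factor Srebf1, named after its value was seen. Lcat, which esterifies cholesterol on lipoproteins, fell (-0.46 ± 0.11, edgeR adjusted p 0.00813). In Q175_TyrobpKO against Q175, 0 of 19 were called (median -0.08), with the cholesterol-esterifying enzyme Soat1 at -0.13 ± 0.07 and the cholesterol exporter Abca1 at -0.21 ± 0.11 (edgeR adjusted p 0.83 and 0.841). Abca7 and Lcat moved the same way without Tyrobp (0.55 ± 0.09 and -0.42 ± 0.11, edgeR adjusted p 4.20e-04 and 0.0226).

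**Figure D3:**
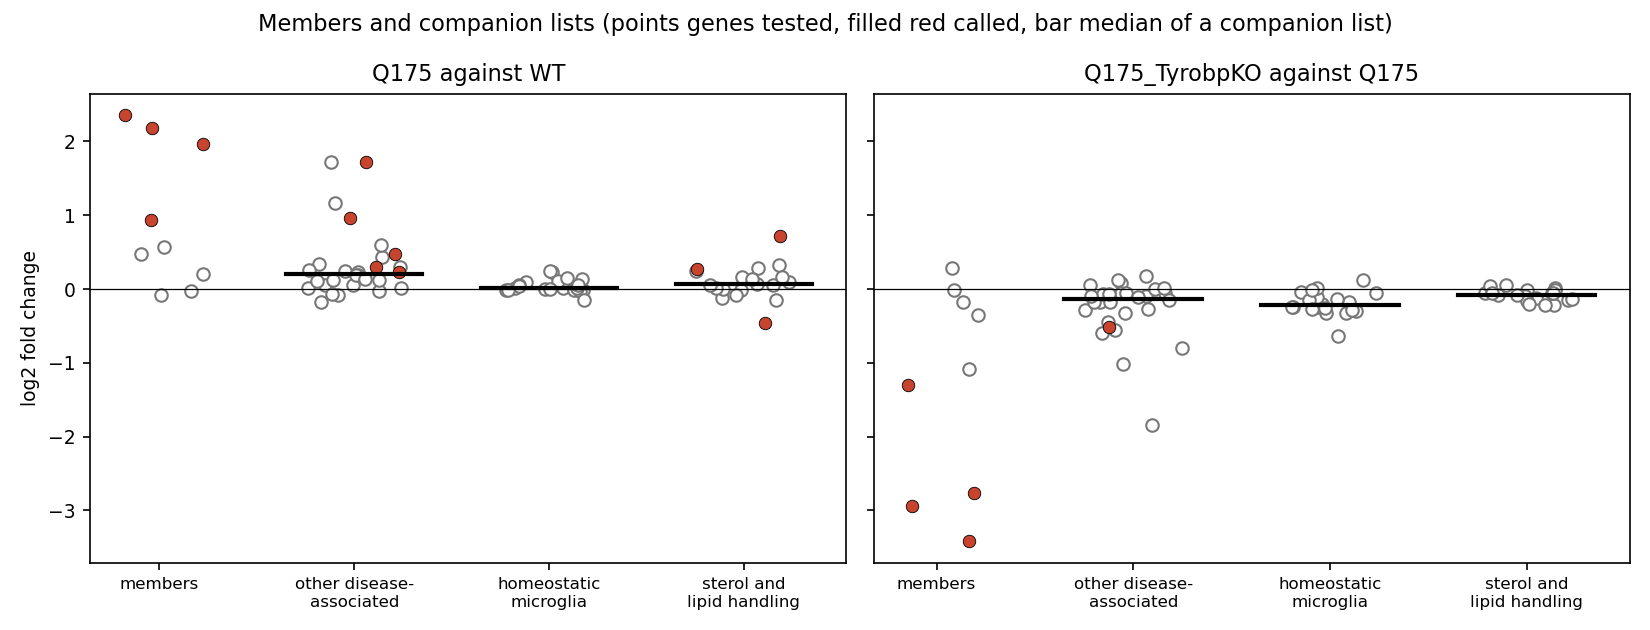
Log2 fold change (vertical axis) of each tested gene in the members and 3 companion lists, for Q175 against WT (left) and Q175_TyrobpKO against Q175 (right); filled red points are called by edgeR and bars are medians of the companion lists. The 4 called members reach 2.36 on the left and -3.42 on the right, while the homeostatic list has a median of 0.02 and -0.22 and no called gene.

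Markers of other cells that express some members were read in the same libraries. Lyz2 and Itgax are known from monocytes, neutrophils and dendritic cells, and Clec7a from border macrophages as well. Of 13 markers of monocytes, neutrophils and blood, 8 stayed under 1 CPM in every library (Ccr2 at most 0.308 CPM, Ly6c2 at most 0.178 CPM), while S100a9 reached 1.83 CPM and Ngp, Hba-a1, Hbb-bs and Alas2 also passed 1 CPM. Of 8 dendritic markers 5 stayed under it (Xcr1 at most 0.141 CPM), but Flt3 was at 1.31 to 9.56 CPM and Zbtb46 at 4.18 to 15.4 CPM in every library, and H2-Aa reached 1.83 CPM. Of 10 border macrophage markers 6 stayed under it (Lyve1 at most 0.425 and Pf4 at most 0.346 CPM). The other 4 did not, with Cd163 at 9.57 to 21.4 CPM, Stab1 at 11.5 to 16.2 CPM, Mrc1 at 0.648 to 1.57 CPM and Clec12a at 1.92 to 9.31 CPM. Of 8 markers of T and NK cells, 7 stayed under it (Cd3e at most 0.184 CPM) and Cd4 did not. The monocyte, neutrophil and blood markers summed to 1.98 to 7.72 CPM across WT, 1.36 to 5.38 in TyrobpKO, 3.22 to 9.41 in Q175 and 3.25 to 8.27 in Q175_TyrobpKO, and of 4 tested S100a9 rose in Q175 against WT. Of 5 tested border macrophage markers Clec12a fell in that comparison, and the list of 10 summed to 34.3 to 47.1 CPM in WT and 31.0 to 38.2 in Q175. Of 3 tested dendritic markers Zbtb46 fell, and of 2 tested markers of T and NK cells 0 were called. Over all genes 4.15% were called higher and 5.47% lower in Q175 against WT. Zbtb46 and Cd4 are also expressed by other brain cells. The part of these cells in the members' values was not tested.

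Choroid plexus markers differed between libraries. The 9 markers summed to 39.6 to 76.8 CPM across WT, 26.5 to 134 in TyrobpKO, 37.4 to 4203 in Q175 and 43.2 to 608 in Q175_TyrobpKO. In Q175 against WT 2 of 9 (Aqp1 and Ttr; 22.2%, against 4.15% of all genes) were called higher. In Q175_TyrobpKO against Q175, TyrobpKO against WT and Q175_TyrobpKO against TyrobpKO 0 of the 9 markers were called. Without the 4 libraries highest in them, Clec7a was at 2.24 and -4.35 in the main comparisons, Lyz2 at 0.88 and -1.18, and these 4 differences were called. Itgax was called in Q175 against WT (2.18, edgeR adjusted p 0.0406) but not in Q175_TyrobpKO against Q175 (-3.38, edgeR adjusted p 0.227). Cst7 was called in neither (1.47 and -1.93, edgeR adjusted p 0.104 and 1). Of the striatal projection neuron markers 10 of 12 were called lower in Q175 than in WT (83.3%, against 5.47% of all genes; median -0.66). Astrocyte markers were 1 higher (Gfap) and 2 lower (Slc1a2, Slc4a4) of 10, and 0 of 10 oligodendrocyte markers were called there.

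Members were then related to cell-type levels between libraries of the same genotype and sex, after group means had been subtracted from log2(CPM + 0.5). Over 24 libraries, 10 members and 5 reference levels gave 50 relations with permutation p-values from 100000 resamples. Lpl followed the summed striatal projection neuron markers (Pearson r 0.91, Spearman rho 0.90; permutation p 1.00e-05 for both, the smallest possible, adjusted 5.00e-04), and r was 0.89 without the 2 libraries farthest from the median. Cd9 followed the oligodendrocyte markers (r 0.80, rho 0.79; permutation p 2.00e-05 and 3.00e-05, adjusted 5.00e-04 and 7.50e-04; 0.83 without 2). Gpnmb ran opposite to the projection neuron markers (r -0.62, rho -0.59; permutation p 0.00125 and 0.00272, adjusted 0.0156 and 0.034; -0.50 without 2).

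Apoe followed the homeostatic list in r (0.57, permutation p 0.00374, adjusted 0.0374) but not past the threshold in rank (rho 0.47, p 0.0235, adjusted 0.196), and r was 0.42 without 2 libraries. It had r 0.55 (p 0.0058, adjusted 0.0483) and rho 0.41 (p 0.0488, adjusted 0.252) with the oligodendrocyte markers, and 0.44 without 2, by the same permutation test. Apoe did not pass with Cx3cr1, P2ry12 and Tmem119 summed (r 0.51, permutation p 0.0115, adjusted 0.0819). It had r -0.30 with the astrocyte markers (permutation p 0.15, adjusted 0.459). Lpl had r 0.63 and rho 0.61 with the summed level of Cx3cr1, P2ry12 and Tmem119 (permutation p 9.50e-04 and 0.00178, adjusted 0.0156 and 0.0297; 0.55 without 2). With the homeostatic list Lpl had r 0.00 and rho -0.05, so the 2 microglial references gave unlike values. Clec7a, Itgax, Lyz2 and Cst7 had r of -0.04, 0.20, 0.35 and -0.19 with the homeostatic list and passed with none of the 5 reference levels. For Clec7a, Itgax and Cst7 counts per library are so low that counting error takes up part of this spread.

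**Figure D4:**
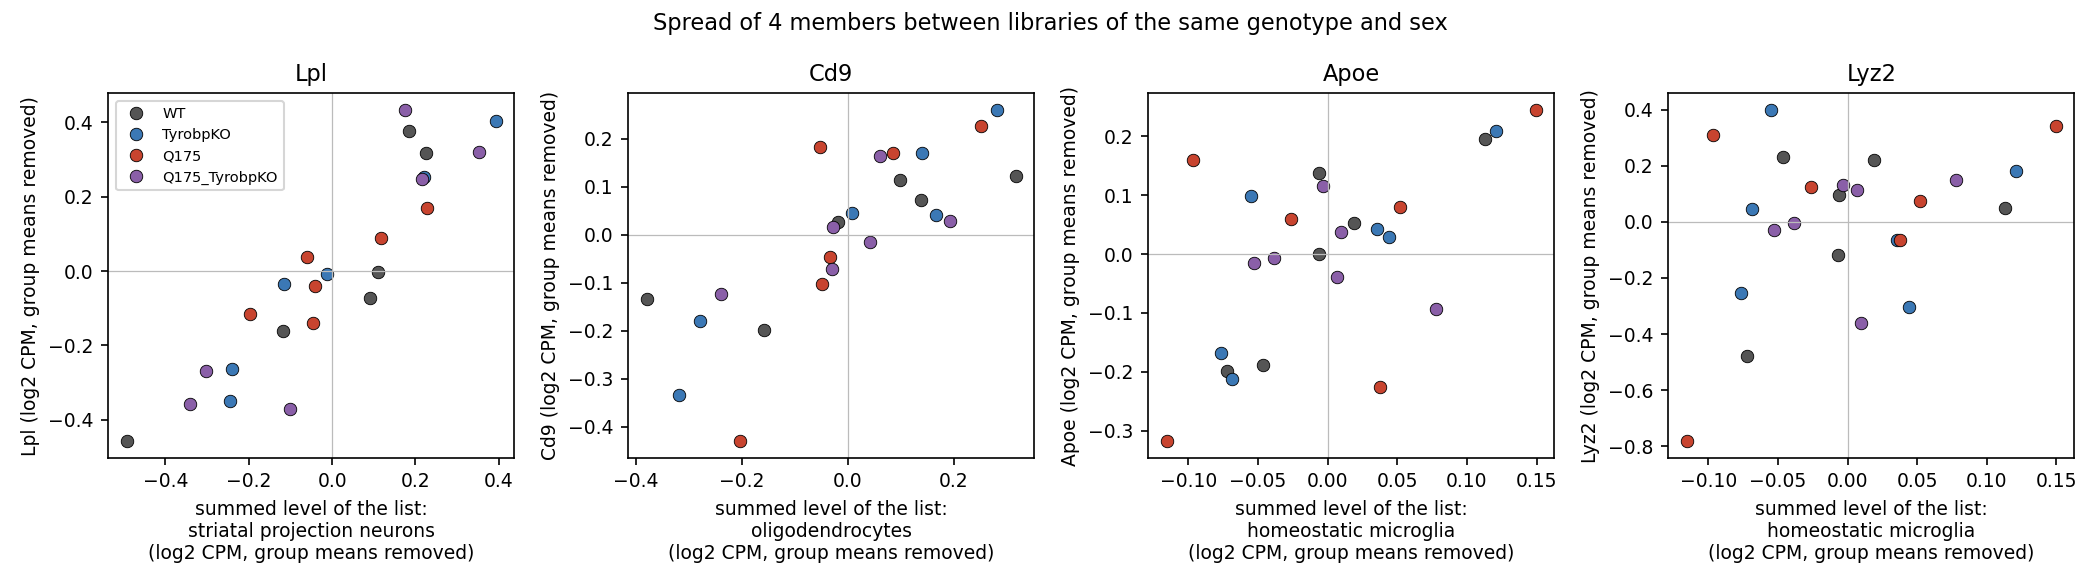
Each point is 1 of 24 libraries, coloured by genotype; the vertical axis is a member's log2(CPM + 0.5) and the horizontal axis a cell-type list's summed log2 level, both with genotype and sex means subtracted. Lpl rises with the striatal projection neuron list (r 0.91) and Cd9 with the oligodendrocyte list (r 0.80), Apoe less so with the homeostatic list (r 0.57), and Lyz2 is spread widely (r 0.35), with Q175 replicate 1 lowest.

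Genes with the most similar spread within genotype and sex were read from all tested genes, by Pearson r over the same 24 libraries. They are the highest of 19667 r values, so a high r was to be found for any member. The r that unrelated genes would reach was not computed. All libraries are whole striatum, so that points share tissue makeup and depth. For Lyz2 they were AC168220.3 (r 0.84), the apolipoprotein gene Apoc1 (0.76) and Adgre1, a surface receptor of macrophages (0.75). For Clec7a they were Gna14 (0.72), Qrfpr (0.72) and Ncapg (0.70), and for Cst7 Gm47004 (0.78), 4930473H19Rik (0.73) and Gm12749 (0.72), all genes under 1 CPM on average. Looked up after values were seen, the nearest genes were Gnal (0.98), a G protein subunit of striatal neurons, for Lpl, Fam234a (0.90) for Cd9 and C1qa (0.91), a complement gene of microglia, for Apoe. Among the members themselves, the largest r was 0.60 for Lyz2 with Apoe and the most negative -0.70 for Gpnmb with Lpl, and Clec7a had r of 0.39 with Itgax, 0.30 with Cst7 and -0.01 with Lyz2.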

How the data were processed

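RNA of 24 striata was sequenced. The deposited values are counts of reads per gene, in whole numbers with no normalization. Per the submitters' processing notes STAR, featureCounts and DESeq2 were used, with GRCh38 named as the build. The table itself holds mouse identifiers, and 54409 of its 54532 genes were found in GENCODE release M21 on GRCm38. Of those found, 53499 (98.3%) had the same coordinates in the release. Among the members this held for 9, but not for all. The coordinates printed are on GRCm38. Use of strand is not given in the sources used here. All sample columns were mapped (0 were left over). Within genotypes, 60 pairs of libraries differed by a mean chi-square per gene of at least 6.89, so none was counted as a repeat.

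edgeR 4.0.16 (R 4.3.3) was fitted to all libraries with TMM scaling, filterByExpr, a mean per genotype and a sex term, leaving 19667 genes (biological coefficient of variation 16.2%). The code was tested on simulated data. Alternatives were RLE scaling, DESeq2 1.42.0, limma-voom (limma 3.58.1), no filter, no sex term, only the compared libraries, each sex alone, a homeostatic microglia covariate and leaving out each library. Permutations and correlations used scipy 1.17.1. The members, gene lists and tests were chosen with earlier results of these data known. Named were all members, from 3 lists the 2 genes of smallest p in each main comparison, and the 3 genes nearest in spread to the 3 members of smallest p in Q175_TyrobpKO against Q175. Of the genes this rule names, 1 is not reported here. Others are said to be named after their values were seen, as are the marker genes of other cells. The p-values measure the spread between animals. Counting error is larger for Clec7a, Itgax, Cst7 and Ch25h, which held 657, 492, 263 and 112 reads in all.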

Additional observations from a re-analysis of the deposited data

Results flagged for a closer look

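In 4 of the 40 sets of 6 libraries (10 members, 4 genotypes) the gap between an extreme library and its nearest neighbour took up more of the range than Dixon's 95% value of 0.625. Chance alone flags about 1 in 20 sets. Lyz2 in Q175 replicate 1 was 6.08 CPM, while the other 5 Q175 libraries lay above the highest WT library (8.02 CPM), up to 13.9 CPM (gap over range 0.766). Clec7a in Q175_TyrobpKO replicate 6 was 0.835 CPM, against 0.0683 to 0.307 CPM in the other 5 (0.689). Spp1 in that same library was 20.8 CPM, against 1.88 to 8.24 CPM (0.663), and the library is 1 of the 4 high in choroid plexus markers. Itgax in TyrobpKO replicate 4 was 0.597 CPM, against 0 to 0.116 CPM in the other 5 (0.806).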

How the results depend on the processing

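No paired analysis was possible because the labels give no replicate numbers that genotypes share. Among 1560 recomputed log2 fold changes with an adjusted p, 1479 kept direction and call, 30 lost the call, 2 gained it and 49 changed sign. The 4 members called in Q175 against WT became 1 in males alone (Clec7a) and 1 in females alone (Lyz2), with 4 to 5 on leaving out 1 library (5 without Q175 replicate 1, with Cd9). The 4 called in Q175_TyrobpKO against Q175 became 1 in males (Clec7a) and 1 in females (Lyz2), which have fewer samples. They became 2 (Lyz2 and Clec7a) with the homeostatic covariate, and also 2 with a covariate of Cx3cr1, P2ry12 and Tmem119 and 2 without the 4 libraries high in choroid plexus markers, both chosen after seeing the data. Leaving out 1 library gave 2 to 5, with 2 without Q175_TyrobpKO replicate 5 (Itgax and Cst7 lost). The cause was not tested. With no filter on low counts Itgax was lost there (3 called), and in a fit of only the compared libraries Cst7 (3 called). DESeq2 gave Cst7 no adjusted p in Q175 against WT, so that it called 3, and this value is not among the 1560.

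Sign changes concerned values that were not called. In females alone they were Lpl in Q175 against WT (0.03), Apoe in Q175_TyrobpKO against Q175 (0.05), Lyz2 (-0.16), Lpl (-0.20) and Spp1 (0.43) in Q175_TyrobpKO against TyrobpKO, and the interaction of Lpl (-0.23). In males alone they were Apoe in TyrobpKO against WT (-0.10), and Clec7a (-1.07) and Gpnmb (-0.13) in Q175_TyrobpKO against TyrobpKO. With the homeostatic covariate they were Apoe in Q175_TyrobpKO against Q175 (0.15), Gpnmb (-0.06), Apoe (0.05) and Spp1 (0.31) in Q175_TyrobpKO against TyrobpKO, and the interaction of Apoe (0.13). With the covariate of Cx3cr1, P2ry12 and Tmem119 they were Gpnmb (-0.02), Apoe (0.12) and Lpl (0.10) in Q175_TyrobpKO against Q175, Gpnmb (-0.18) and Spp1 (0.15) in Q175_TyrobpKO against TyrobpKO, and the interaction of Apoe (0.06). Without the 4 libraries high in choroid plexus markers Clec7a in Q175_TyrobpKO against TyrobpKO was -0.88. With Cx3cr1, P2ry12 and Tmem119 as the reference level the r of Clec7a was 0.22. On leaving out 1 library, ranges that crossed 0 were -0.11 to 0.07 for Lpl in Q175 against WT, -0.08 to 0.03 for Apoe in Q175_TyrobpKO against Q175, -0.04 to 0.05 for Apoe in TyrobpKO against WT, and -0.09 to 0.02 (Apoe) and -1.57 to 0.13 (Itgax) for the interaction. In Q175_TyrobpKO against TyrobpKO they were -0.55 to 0.75 for Clec7a, -0.10 to 0.11 for Gpnmb, -0.00 to 0.16 for Lyz2 and -0.76 to 0.16 for Spp1.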
